A study of Mus musculus with 2 samples.

Results

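Collagens are triple-helical proteins of the extracellular matrix, laminins are glycoproteins of the basement membrane, and integrins are the alpha-beta receptor pairs through which cells hold on to both. An integrin reaches the cell surface only when 1 alpha and 1 beta chain have paired, so the subunit that a cell makes sets which ligands it can bind. In melanocytes and melanoma cells, integrin αvβ3 and the laminin-binding integrins are known for their roles in adhesion, migration and invasion. The collagens, laminins and integrins measured here were all genes whose symbol consists of Col, digits, a and digits, starts with Itga or Itgb, or is Lama, Lamb or Lamc with a digit. This rule took 85 of the 27790 genes on the array, read by 177 of its 41174 probes. They were 43 collagens, 11 laminins, 25 integrin subunits and 6 genes with an integrin name that encode no subunit of this list.

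The lines compared were mouse melanoma, both of them B16F1 cells that carry a green fluorescent protein (GFP) plasmid and grow untreated in serum-containing medium. B16F1-GFP-M is the maternal line. B16F1-GFP-D is 1 clonal line grown from GFP-positive cells that had persisted in tumour-free mice long after a challenge with B16F1-GFP cells. The founder came from a sort of pooled organs, of immunised and control mice alike, which still held host cells without GFP, and it was cloned in culture. RNA of both lines was hybridised together on 2 Agilent 2-colour arrays of 1 slide with the dyes exchanged: on array 1 B16F1-GFP-D was labelled with Cy3 and B16F1-GFP-M with Cy5, and on array 2 the reverse. The labels give no separate cultures, so the arrays were read as a technical dye swap of 1 replicate per line. Values are log2 ratios of B16F1-GFP-D to B16F1-GFP-M (D/M), turned the same way on both arrays, and each ± is the SD between the 2 arrays, which holds no biological spread. For a median over genes, taken from the mean ratios, the ± is the SD of the medians of the 2 arrays. No test was possible. The brightest probe stood for each gene. A gene counted as detected when 1 line or both exceeded background clearly on array 1 and on array 2, and was called higher or lower when the ratio reached 2-fold in the same direction on each array.

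The deposited scanner files named each probe with its position in the mouse genome (mm9), and these positions and bases are shown for the 2 called members because every statement on them rests on what the probes read. The Itgb5 probe lies at chr16:33949123-33949182. The brighter Col5a3 probe lies at chr9:20574592-20574651, and the second, dimmer one spans chr9:20590066-20590795. Which exon or untranslated part each one reads was not analysed here. The first 30 of 60 bases of each probe are given 5′ to 3′, with no base in capitals.
Itgb5 probe: gccagacaagaaggtatccggaagagtctg
Col5a3 brighter probe: tctgtggtctatttaatttgcttccttctg
Col5a3 second probe: gggtcctcaggggaaagatgggatatctgg
Of these 3 probes, the second Col5a3 probe alone has a reading frame with a glycine codon at regular steps of 3 codons throughout, the repeat of a collagen triple helix.

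The starts of the same 2 genes are shown as the 250 bases before each RefSeq transcription start (GRCm38.p6), on the gene's own strand. Capitals mark the GC box, GGGCGG, read on either strand as GGGCGG or CCGCCC. The Itgb5 stretch is chr16:33829415-33829664 on the plus strand and the Col5a3 stretch is chr9:20815068-20815317 on the minus strand.
Itgb5: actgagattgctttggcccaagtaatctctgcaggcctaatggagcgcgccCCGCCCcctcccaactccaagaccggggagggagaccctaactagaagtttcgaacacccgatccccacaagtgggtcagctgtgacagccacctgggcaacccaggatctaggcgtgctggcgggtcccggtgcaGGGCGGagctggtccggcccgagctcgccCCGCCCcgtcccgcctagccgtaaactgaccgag
Col5a3: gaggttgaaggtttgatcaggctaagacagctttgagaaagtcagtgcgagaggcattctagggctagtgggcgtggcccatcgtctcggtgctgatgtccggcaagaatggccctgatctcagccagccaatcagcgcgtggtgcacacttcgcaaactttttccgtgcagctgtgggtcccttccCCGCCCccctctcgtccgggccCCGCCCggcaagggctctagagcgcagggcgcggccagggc
Itgb5 has 3 GC boxes and 18 CpG, and Col5a3 has 2 GC boxes and 17 CpG. Over all 32851 promoter stretches in the table, 32.7% hold a GC box and the median number of CpG is 6. Neither stretch holds the TATA box letters TATAAA, present in 12.4% of all stretches, or the AP-1 letters TGANTCA, present in 6.75%. The letters CATGTG (12.3%) and CACGTG (6.02%) are also absent from both. Col5a3 holds the CAAT box letters CCAAT, present in 33.8% of all stretches, and Itgb5 does not. These letters are a description of the windows and say nothing on whether a factor binds there.

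Of the 85 members, 37 were detected (43.5%), close to the share among all genes (12540 of 27790, 45.1%). No member was called higher in B16F1-GFP-D, where 3.09% of all detected genes were (387 genes). Itgb5 and Col5a3 were called lower, 2 of 37 (5.41%), against a background of 1.94% (243 genes). With 2 members, the count does not set the family apart from the array. At a 1.5-fold limit, 1 member was higher (Col16a1, background 8.77%) and 4 were lower (Itgb5, Col5a3, Col15a1 and Itga9, background 7.02%). Itgb5 was the only member beyond 3-fold on each array. The median log2 ratio of the detected members stood near no difference, at 0.08 ± 0.02, beside -0.01 ± 0.03 for all detected genes. Within 0.5 of zero lay 30 of 37 (81.1%), beside 74.3%. This share depends on the offset added to dim signals, and the members were dimmer than all detected genes (median log2 intensity 7.82, beside 9.14). By the scanner software's ratio, without that offset, several members left this range, such as Col1a2 (-0.87), Itgb1bp3 (0.85) and Col4a2 (0.70). No member entered it. The share of all genes was not counted there. In sign, 19 members had a positive ratio on both arrays, 12 a negative one on both, and 6 had opposite signs. Of all 12540 detected genes, 5143 were positive, 5363 negative and 2034 of opposite signs. The sign was the same on both arrays in 83.8% of the members and in 83.8% of all detected genes. These all-gene counts also stand beside the sign counts of each family and list below. The ratios of the detected members correlated between the arrays (Pearson's r = 0.94 across genes, which are not independent replicates), beside r = 0.93 for all detected genes. The pooled SD between arrays was 0.14 for the members and 0.15 for all detected genes.

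**Figure D1:**
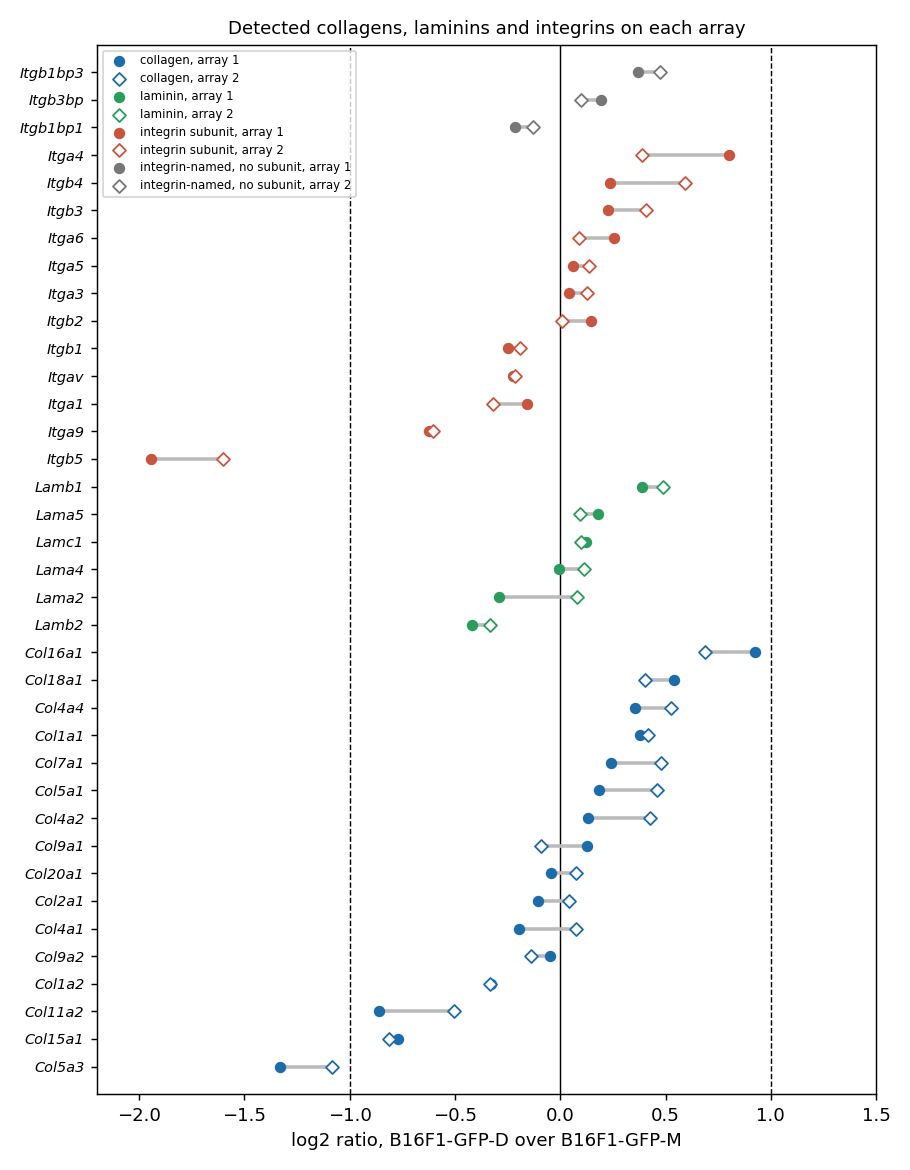
Log2 D/M ratio (x axis) for each of the 37 detected members, with array 1 as a filled circle, array 2 as an open diamond and a grey line joining both values of a gene. Itgb5 and Col5a3 lie beyond the dashed 2-fold line on both arrays, and no member lies beyond it on the right.

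**Figure D2:**
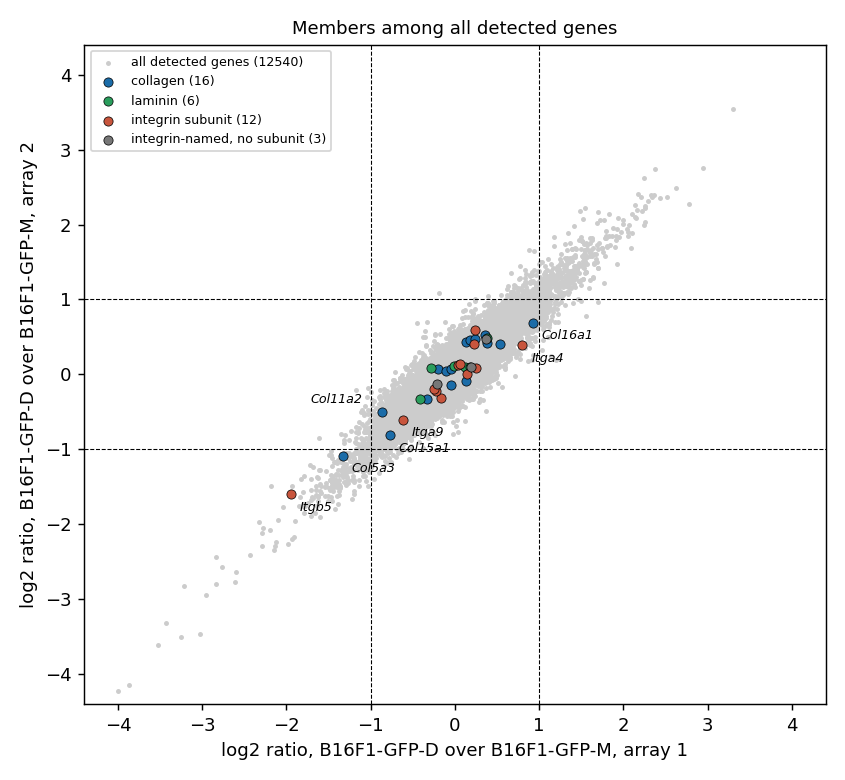
Log2 ratio on array 1 (x axis) against array 2 (y axis) for all 12540 detected genes in grey and the 37 detected members in colour by family, with dashed lines at 2-fold. Itgb5 and Col5a3 are the members in the lower left corner, and the others sit within the central cloud.

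Itgb5, the integrin β5 chain that pairs with αv to bind vitronectin, was the member that differed most between the lines. Its log2 signal in B16F1-GFP-D was 9.41 on array 1 and 9.55 on array 2, and in B16F1-GFP-M it was 11.36 and 11.15. B16F1-GFP-D was thus the lower line under both dyes, with a gap far wider than the spread between arrays. The log2 ratios were -1.94 and -1.60, a mean of -1.77 ± 0.24, or 3.42-fold lower. Itgb5 has 1 probe on the array, the one shown above, so no second probe could be set against it. With each array centred on its median and no loess correction for dye, the mean was -1.66, but the arrays gave -2.97 and -0.34 and the call was lost.

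Its partner chain did not share this size of difference. Itgav, the αv chain that also pairs with β1, β3, β6 and β8, had log2 signals of 8.63 and 8.53 in B16F1-GFP-D and 8.85 and 8.75 in B16F1-GFP-M. The ratio was -0.22 ± 0.01, and a second detected probe gave -0.11 and -0.18. Itgb3, whose β3 chain forms αvβ3, had log2 signals of 9.30 and 9.58 in B16F1-GFP-D against 9.07 and 9.17 in B16F1-GFP-M. B16F1-GFP-D was here the higher line on both arrays, by 0.32 ± 0.13, although the second detected Itgb3 probe had opposite signs on the arrays (-0.25 and 0.60). Set against Itgav within each array, the ratio of Itgb5 was lower by 1.72 and 1.38 on the log2 scale, and that of Itgb3 was higher by 0.45 and 0.62. The ratio of Itgb3 exceeded that of Itgb5 by 2.09 ± 0.12. These are differences between changes of RNA, and no level was compared between probes. The other αv partners, Itgb6 and Itgb8, were not detected.

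Col5a3 encodes the α3 chain of collagen V, a fibrillar collagen that regulates the diameter of collagen I fibrils. In B16F1-GFP-D its log2 signal was 8.31 on array 1 and 8.45 on array 2, and in B16F1-GFP-M it was 9.64 and 9.54. The lines were separated under both dyes, with ratios of -1.33 and -1.09, a mean of -1.21 ± 0.17, or 2.31-fold lower. The second probe, whose bases hold the triple-helix repeat, was not detected and gave -0.25 and 0.07. With the median over probes in place of the brightest one, the mean was -0.65 and the call was lost. Median centring without loess also ended it (-2.27 and -0.04). The difference in Col5a3 therefore rests on 1 probe. Col5a1, the α1 chain found in all collagen V trimers, had log2 signals of 8.03 and 8.04 in B16F1-GFP-D and 7.85 and 7.59 in B16F1-GFP-M, a ratio of 0.32 ± 0.19. The Col5a3 ratio stood below that of Col5a1 by 1.53 ± 0.02. Col5a2 was not detected.

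Among the collagens, 16 of 43 were detected (37.2%), and the median of their mean log2 ratios was 0.02. Over these 16 genes the median was 0.04 on array 1 and 0.07 on array 2. By sign, 7 had a positive ratio on both arrays, 5 a negative one and 4 opposite signs. The fibrillar collagens, which build the tensile fibres of the matrix, were detected in 6 of 11 cases. Col1a1 and Col1a2, the 2 chains of collagen I, differed in sign. Col1a1 had dim log2 signals of 6.56 and 6.78 in B16F1-GFP-D and 6.18 and 6.36 in B16F1-GFP-M, where its probe was well above background on 1 array only. The Col1a1 ratio was 0.40 ± 0.03. Its 10 spots on each array ranged from 0.22 to 0.51 and from 0.25 to 0.58, so B16F1-GFP-D was higher at every spot. Col1a2 had log2 signals of 6.93 and 6.90 in B16F1-GFP-D and 7.26 and 7.23 in B16F1-GFP-M, a ratio of -0.33 ± 0.00. The further probes of both chains were not detected, with means of 0.01 and -0.09 for Col1a1 and 0.10 for Col1a2. With the median over probes the chains were at 0.04 and -0.12. Col11a2, a cartilage fibril chain, had log2 signals of 6.74 and 6.70 in B16F1-GFP-D, above background on 1 array only, and 7.60 and 7.20 in B16F1-GFP-M. Its ratio was -0.68 ± 0.25, and its second probe was not detected. Col2a1, the main cartilage collagen, was at -0.03 ± 0.11. Col3a1, Col11a1, Col24a1 and Col27a1 were not detected.

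Several dim collagens moved with the way background was treated. By the log ratio that the scanner software had written, which adds no offset to dim signals, Col1a1 reached 1.97, Col18a1 1.65, Col15a1 -1.77, Col11a2 -1.46 and Col1a2 -0.87. With the offset lowered from 50 to 0, the ratios were 1.13, 1.16, -1.40, -1.27 and -0.60. The sign of each stayed the same, and the first 4 ran from under to over 2-fold in mean ratio.

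The fibril-associated collagens, which coat fibrils without forming them, were detected in 4 of 9 cases. Col16a1 was the collagen with the highest ratio. Its log2 signal was 10.68 and 10.55 in B16F1-GFP-D and 9.75 and 9.87 in B16F1-GFP-M, so that B16F1-GFP-D was higher on both arrays, by 0.93 and 0.69. The mean was 0.81 ± 0.17, or 1.75-fold. The second detected Col16a1 probe gave only 0.10 and 0.16. Col9a1, Col9a2 and Col20a1 were at 0.02, -0.09 and 0.02, and Col9a3, Col12a1, Col14a1, Col19a1 and Col22a1 were not detected.

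Collagen IV is the sheet-forming collagen of basement membranes, and 3 of its 6 chains were detected. Col4a4 had 2 detected probes, which gave 0.36 and 0.52 and 0.43 and 0.63, all higher in B16F1-GFP-D. Col4a1 and Col4a2 make up the common α1α1α2 trimer and lie head to head in the genome. Col4a1 was at -0.06 ± 0.19 with opposite signs on the arrays, and Col4a2 was at 0.28 ± 0.21. The second detected Col4a1 probe gave 0.15 and 0.10, so the sign of Col4a1 depended on the probe and no difference between the chains was read. Col4a3, Col4a5 and Col4a6 were not detected.

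The multiplexins Col15a1 and Col18a1 are collagens of basement membrane zones, and the C-terminal part of Col18a1 is released as endostatin. Both were detected and they stood on opposite sides of zero. Col15a1 had log2 signals of 6.94 and 6.47 in B16F1-GFP-D against 7.71 and 7.28 in B16F1-GFP-M, a ratio of -0.79 ± 0.03. Col18a1 had 6.74 and 6.88 in B16F1-GFP-D against 6.20 and 6.47 in B16F1-GFP-M, a ratio of 0.47 ± 0.10. For both genes the second probe was not detected. Col7a1, the collagen of anchoring fibrils, was at 0.36 ± 0.17. No chain was detected of collagen VI, a beaded filament of most connective tissues (0 of 6), of collagens VIII and X (0 of 3) or of the transmembrane collagens Col13a1, Col17a1, Col23a1 and Col25a1 (0 of 4), and Col28a1 was not detected.

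Laminins are built from 1 alpha, 1 beta and 1 gamma chain, and at least 1 chain of each kind was detected in both lines, 6 of 11 genes in all. Their median log2 ratio was 0.08 ± 0.03, and all 6 lay within 0.5 of zero. By the scanner software's ratio Lamb1 lay outside this range, at 0.60. The alpha chains Lama4 and Lama5, found in laminins of vessels and of many epithelia, were at 0.05 ± 0.08 and 0.14 ± 0.06. The Lama5 log2 signals were 8.53 and 8.46 in B16F1-GFP-D and 8.35 and 8.37 in B16F1-GFP-M. Lama2, the muscle and nerve chain, was at -0.10 ± 0.26. Lamc1, the gamma chain of most laminins, was at 0.11 ± 0.02. The beta chains went opposite ways. Lamb1 had log2 signals of 7.97 and 7.98 in B16F1-GFP-D and 7.58 and 7.50 in B16F1-GFP-M, a ratio of 0.44 ± 0.07. Lamb2 had 10.10 and 10.30 in B16F1-GFP-D and 10.52 and 10.63 in B16F1-GFP-M, a ratio of -0.38 ± 0.06. The Lamb1 ratio exceeded that of Lamb2 by 0.81 ± 0.01, although neither gene reached 1.5-fold. Among the others, Lama1, Lama3, Lamb3 and Lamc3 were not detected.

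Of the integrin subunits, 12 of 25 were detected, 7 with a positive and 5 with a negative ratio on both arrays and none with opposite signs. The median of their mean ratios was 0.08, and over these 12 genes the median was 0.05 on each array. Itga4 and Itga9 are closely related alpha chains that share ligands such as osteopontin and VCAM-1, and they stood on opposite sides of zero. Itga4 had log2 signals of 11.45 and 11.11 in B16F1-GFP-D and 10.64 and 10.73 in B16F1-GFP-M, a ratio of 0.59 ± 0.29. All 4 detected Itga4 probes had positive ratios on both arrays, the other 3 between 0.22 and 0.50. Itga9 had 8.98 and 8.92 in B16F1-GFP-D and 9.60 and 9.53 in B16F1-GFP-M, a ratio of -0.61 ± 0.01. Its second detected probe gave -0.57 and -0.29. The difference between the 2 ratios was 1.42 on array 1 and 0.99 on array 2.

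Itgb1, the beta chain shared by most matrix-binding integrins, could not be given a direction. Its brightest probe gave -0.25 and -0.19, while a second detected probe, printed at 10 spots per array, gave 0.26 and 0.23 with an SD between spots of 0.03 and 0.02. Each probe held its sign under both dyes, and the signs of the probes were opposite. Among the laminin-binding chains, Itga6 was at 0.17 ± 0.12, Itga3 at 0.08 ± 0.06, and Itgb4, which pairs with α6 in hemidesmosomes, at 0.41 ± 0.25 with a second probe at 0.16 and 0.39. The Itgb4 log2 signals were 8.37 and 8.72 in B16F1-GFP-D and 8.13 on both arrays in B16F1-GFP-M. Itga1, a collagen-binding alpha chain, was at -0.24 ± 0.11, and the other 3 collagen-binding chains, Itga2, Itga10 and Itga11, were not detected. Itga5, the alpha chain of the fibronectin receptor α5β1, was at 0.10 ± 0.05. Of the leukocyte integrins, no alpha chain among Itgal, Itgam, Itgax and Itgae was detected, and Itgb2, the beta partner of αL, αM and αX, was near background at 0.08 ± 0.10. Itga2b, Itga7, Itga8 and Itgb7 were not detected either.

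Another 3 detected genes carry an integrin name without being a subunit. Itgb1bp1, whose product binds the β1 tail and restrains activation, was at -0.17 ± 0.06. Itgb1bp3, a nicotinamide riboside kinase now named Nmrk2, was at 0.42 ± 0.07. Itgb3bp, a centromere protein also known for binding the β3 tail, was at 0.15 ± 0.06, and its second detected probe had the opposite sign (-0.30 and -0.22). Itgb1bp2, Itgb2l and Itgbl1 were not detected.

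**Figure D3:**
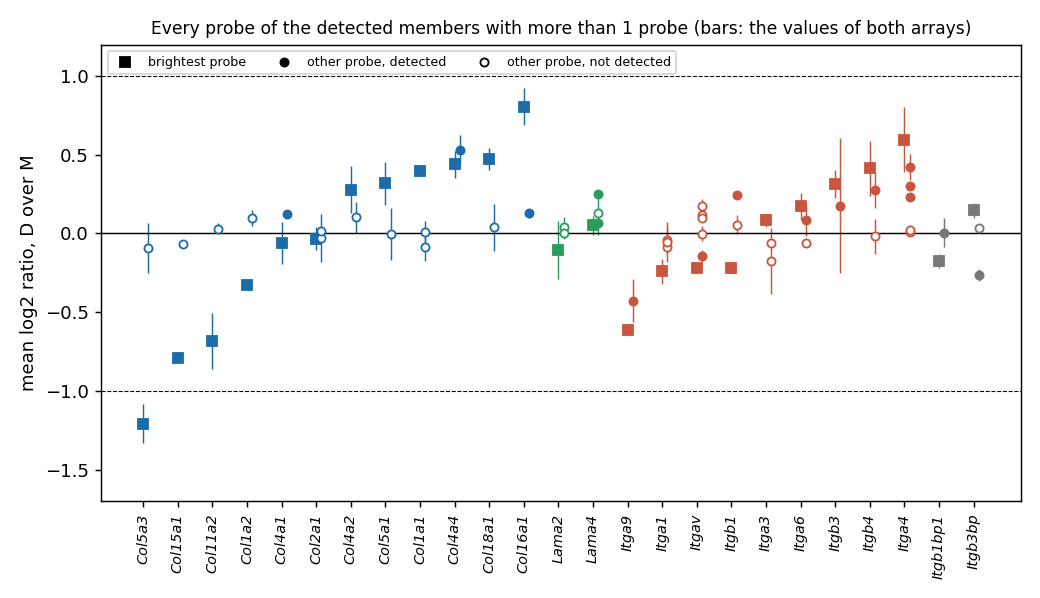
Mean log2 D/M ratio (y axis) for every probe of the detected members that have more than 1 probe, with squares for the brightest probe, filled circles for other detected probes, open circles for probes not detected, and bars spanning the values of both arrays. The open circles lie near zero, and Itgb1, Itgb1bp1, Itgb3bp and Col4a1 have detected probes whose means lie on both sides of zero.

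Over the whole family, 16 further probes of the detected members were themselves detected, and 12 of them had the sign of the brightest probe. None of the 48 undetected members had another probe that was detected. No detected member was dim on both arrays in either line, so each ratio was measured on both sides. In 6 members, however (Col11a2, Col18a1, Col1a1, Col4a2, Itga3 and Lama2), 1 line was above background on 1 array only.

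The proteins that make, process, bind and remodel the matrix were described from 6 lists of partner genes. In each, the median stood beside -0.01 for all detected genes, and the calls stood beside the same 3.09% and 1.94%. The lists were chosen with earlier results of these data known, so these values are description only. Of the enzymes and chaperones that modify collagen inside the cell, 16 of 19 were detected, 11 higher on both arrays and 4 lower, with a median of 0.31. P4ha2, a catalytic subunit of prolyl 4-hydroxylase, was the 1 gene called (1.79 and 1.92, mean 1.86 ± 0.09, 3.62-fold higher). Of the procollagen processing and cross-linking genes, 4 of 13 were detected, with a median of -0.07. Among them Pcolce, the enhancer of procollagen C-terminal cleavage, was 4.94-fold higher in B16F1-GFP-D (2.29 and 2.32, mean 2.31 ± 0.02).

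Ligands and other receptors were measured in the same way. Of the basement membrane and matrix partners, 8 of 19 were detected, with a median of 0.24. Spp1 encodes osteopontin, a ligand of αv, α4 and α9 integrins, and was the 1 gene called there (1.69 and 1.42). In B16F1-GFP-M the Spp1 probe was not well above background on either array, so the gene was at least 2.74-fold higher. Fn1, Vtn and Tnc, ligands of α5, αv and α9 integrins that were singled out after their values were seen, were not detected. Of the other matrix receptors, 10 of 13 were detected, with a median of 0.33. Ddr2, a collagen-binding tyrosine kinase, was 2.48-fold lower (-1.31 ± 0.25), and Sdc1, a heparan sulphate proteoglycan, was 3.08-fold higher (1.62 ± 0.07).

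Inside the cell, 23 of 26 genes of the integrin adhesion complex were detected, with a median of 0.06, 10 higher on both arrays, 5 lower and 8 of opposite signs. Zyx, the focal adhesion protein zyxin, was the 1 gene called (-1.13 and -1.04, 2.12-fold lower). The log2 ratios of the list ran from that of Zyx up to 0.84. Of the matrix proteases and their inhibitors, 13 of 20 were detected, with a median of 0.19. Timp3, an inhibitor that stays bound to the matrix, was 10.4-fold lower in B16F1-GFP-D (-3.25 and -3.50, mean -3.37 ± 0.18), and Plat, tissue plasminogen activator, was 2.70-fold higher (1.43 ± 0.14). The related Timp1 (1.09 and 0.97, mean 1.03 ± 0.08) fell short of the call on array 2, and Timp2 was at 0.37 ± 0.17. Timp4 was not detected.

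**Figure D4:**
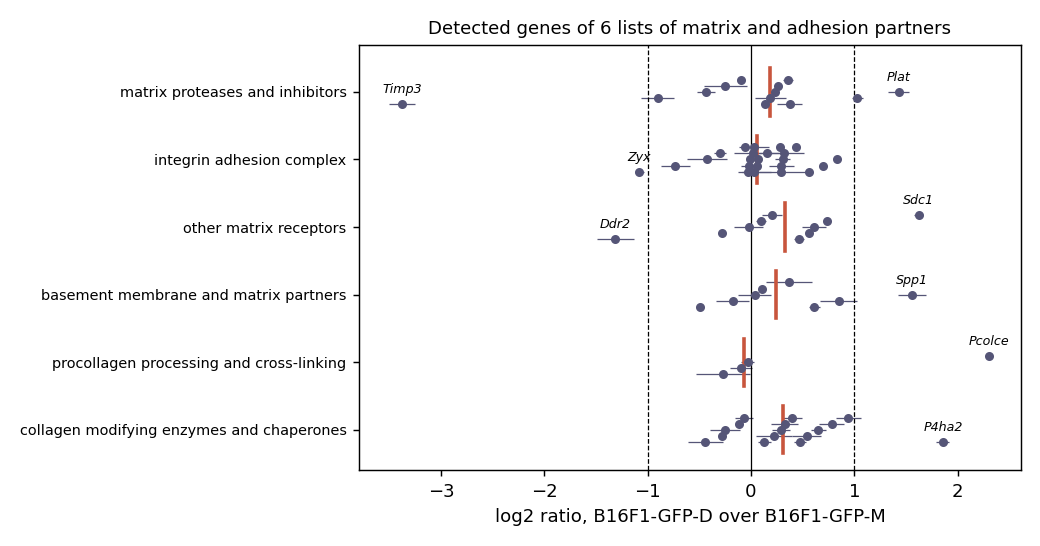
Mean log2 D/M ratio (x axis) of the detected genes in each of 6 partner lists, with thin bars spanning both arrays, the list median as a thick red line and dashed lines at 2-fold. Names mark the genes called, of which Timp3 is the farthest to the left and Pcolce the farthest to the right.

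Since several collagens are typical of fibroblasts, the markers of other cell types were read beside them. All 8 melanocyte markers were detected in both lines, with none called. Their median was -0.34 on array 1 and 0.03 on array 2. On both arrays 4 were lower and 2 higher, and 2 had opposite signs. The 2 lowest were Mitf, the melanocyte master regulator, at -0.92 ± 0.04 and Dct, a pigment enzyme, at -0.78 ± 0.44. Pmel and Mlana, the 2 that were higher, were at 0.30 ± 0.37 and 0.14 ± 0.15. Of 8 fibroblast markers, 3 were detected: Pdgfrb (0.83 ± 0.20), Acta2 (0.94 ± 0.01) and Postn (0.04 ± 0.05), and the Pdgfrb probe was not well above background in B16F1-GFP-M. The markers Pdgfra, Thy1, Dcn, Lum and Fap were not detected. Summed over the 8 markers, the fibroblast signal was 11855 and 12090 in B16F1-GFP-D and 6405 and 6503 in B16F1-GFP-M. Most of this sum was the 1 gene Acta2, a smooth muscle actin, at a mean log2 signal of 13.48 in B16F1-GFP-D and 12.54 in B16F1-GFP-M. Their part in the collagen ratios was not tested. Endothelial (0 of 6), epithelial (0 of 6) and liver (0 of 3) markers were not detected, and of 7 leukocyte markers 3 were. Summed over all 7, the 4 undetected ones included, the leukocyte signal was 796 and 786 in B16F1-GFP-D and 812 and 784 in B16F1-GFP-M. Of the 3 detected ones, Cd68 was at 0.44 ± 0.11, and Cd3e and Lyz2 were at -0.01 ± 0.08 and -0.11 ± 0.08. Over the whole array, the share of spots well above background differed by dye, and no spot was saturated. With Cy3 it was 44.1% in B16F1-GFP-D (array 1) and 45.0% in B16F1-GFP-M (array 2). With Cy5 it was 56.1% in B16F1-GFP-D (array 2) and 60.7% in B16F1-GFP-M (array 1). Some members counted as not detected, such as Col4a5 and Lama3, were above background on 1 array in each line. Less RNA per cell and fewer cells of a kind cannot be told apart in such bulk RNA.

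**Figure D5:**
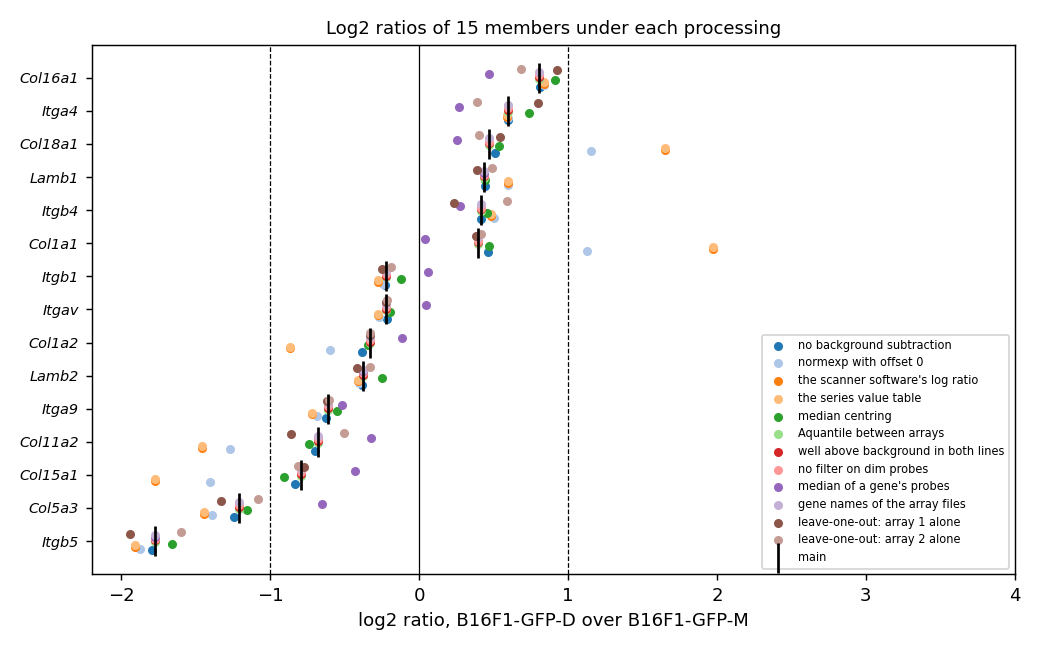
Log2 D/M ratio (x axis) of 15 members as reported (black bar) and under each alternative processing (coloured points), with dashed lines at 2-fold. The mean ratio of Itgb5 stays left of the 2-fold line throughout, whereas Col1a1, Col18a1, Col11a2 and Col15a1 move across it with the correction of dim signals. Col5a3 crosses it with the median over probes (-0.65).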

How the data were processed

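Total RNA of the 2 lines was hybridised on Agilent two-colour arrays, and the deposited scanner files hold mean and background intensity per spot and dye, made by the authors with Agilent Feature Extraction 10.7.3.1 per the labels. They also hold that software's log10 ratio of red over green, and the deposited value table repeats it (its scale and direction were set against the scanner files). How these arrays were normalised for the study is not given in the sources used here. Here, control spots and outlier spots (143 and 176) were left out, intensities were corrected with normexp (offset 50) and normalised by loess within each array (limma 3.58.1, R 4.3.3), and ratios were turned for the dye swap. Log2 signals and summed signals were read after a further normalisation between the arrays (Aquantile), and they still hold the offset of 50. Spots of a probe were averaged. Gene symbols were updated through RefSeq accessions (27198 of 28075 matched). The steps were tested on simulated data with changes larger than the 2-fold limit, scored in bright probes only, so dim probes were not covered. With 1 replicate per line, genes were called by size alone. In depth, the 2 arrays limit the precision to the technical spread. By the naming rule, every detected member was named with its mean ratio, with signals and other probes for called members, their chain partners and the 3 largest uncalled mean ratios of each family. Lists were given by counts and called genes, marker lists also by up to 4 genes. Other values and undetected members stand in the text as description. The members and lists were chosen with earlier results of these data known. Alternatives are given in the closing section. The values of 1 member are not reported here.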

Additional observations from a re-analysis of the deposited data

How the results depend on the processing

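No paired analysis was possible because there was 1 replicate of each line. Over 12 alternatives, 28 of the 37 detected members kept the sign of their ratio and 9 did not (Lama4, Itgb1, Itgav, Col20a1, Col4a1, Col2a1, Lama2, Itga3 and Col9a1). Itgb5 ran from -1.94 to -1.60 and Col5a3 from -1.45 to -0.65, the latter under the median over probes. Members called higher numbered 1 with offset 0 (Col18a1), 2 by the scanner's ratio and 2 by the value table (Col18a1 and Col1a1 in both), and 1 at 1.5-fold, with 635, 759, 758 and 1100 of all genes. Members called lower numbered 4 with the scanner's ratio (Itgb5, Col5a3, Col11a2 and Col15a1), 3 with offset 0 and 3 with the value table (both without Col11a2), 4 at 1.5-fold, 1 at 3-fold (Itgb5) and 1 with the median of probes (Itgb5), with 597, 442, 594, 880, 49 and 165 of all genes, and 0 with median centring in place of loess. In that last setting Itgb5 was at -2.97 and -0.34 and Col5a3 at -2.27 and -0.04 on the 2 arrays, and 45 genes were called higher and 19 lower on the whole array. Detected members numbered 59 on array 1 alone, 53 on array 2 alone, 31 when both lines had to be above background and 31 with the median of probes. The median of the collagens was 0.042 with no background subtraction, 0.0735 by the scanner's ratio, 0.0738 by the value table, -0.0081 with both lines above background and -0.011 with no filter on dim probes, and from -0.039 to 0.018 with single arrays. That of the laminins was 0.0499 by the scanner's ratio and by the value table, 0.053 with no filter, 0.16 with median centring, 0.11 with both lines above background and 0.12 with the median of probes, and from 0.076 to 0.093 with single arrays. That of the integrin subunits was 0.048 with no background subtraction, 0.14 with offset 0, 0.056 with median centring, -0.026 with no filter and 0.076 by the scanner's ratio, the value table, both lines above background and the median of probes, and from -0.0017 to 0.043 with single arrays. The causes of these shifts were not tested. All family medians stayed within 0.2 of zero. The melanocyte marker median turned from -0.14 to 0.18 with median centring. In the same setting, partner list medians rose to 0.50 (collagen modifying enzymes), 0.44 (basement membrane partners), 0.25 (proteases and inhibitors) and 0.21 (adhesion complex). That of the other receptors was 0.35. The procollagen processing median stayed at -0.07 there and was -0.18 by the scanner's ratio. For the called genes of the partner lists, other probes and processing are not given here. Ratios of dim probes were smaller in size with offset 50 than without it in the collagens named above. The same held for other members, which with offset 0 were at 0.68 (Col4a2), -0.48 (Itga1), 0.77 (Itgb1bp3), 0.53 (Col7a1) and 0.60 (Lamb1). It did not hold for all, as Lamc1 was at 0.10 with offset 0.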
